A study of Mus musculus with 18 samples.

Results

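Structural RNA repeats are the rows of a repeat annotation that collect the genomic copies of non-coding RNA genes with a structural or catalytic role, together with their pseudogene copies. Members were taken by name: of the 1365 repeat rows in each of 3 deposited tables, all 81 whose class was tRNA, rRNA, snRNA, scRNA, srpRNA or RNA. These were 60 tRNA rows, 11 snRNA rows, 5 scRNA rows, 3 rRNA rows, the srpRNA row 7SLRNA and the RNA row 7SK. The study sequenced poly(A) RNA from 18 mouse libraries in 6 groups of 3, comparing control cells with cells given the HSP90 inhibitor NVP-AUY922 for 24 h, HSP90 being a chaperone that many regulatory proteins need to fold. The groups were embryonic stem cells (ESCs) in 2i medium, control or at 100 nM, bone-marrow-derived macrophages grown with M-CSF, control or at 500 nM, and neuronal progenitor cells (NPCs) in N2B27 medium with EGF and FGF, control or at 50 nM. The strain was 129S1/CASTEiJ for ESCs and for NPCs, and BALBC/C57BL6 for macrophages. Cell type and dose cannot be told apart, nor can strain where macrophages are compared with the others. No genetic change was named for any group, and whether control cells received the solvent was not given in the sources used here.

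Ribosomal RNAs (rRNAs) form the core of the ribosome. The large (LSU) and small (SSU) subunit rRNAs are cut from a precursor made by RNA polymerase I, whereas 5S rRNA is made by RNA polymerase III. Transfer RNAs (tRNAs), also polymerase III products, carry amino acids to the ribosome. Small nuclear RNAs (snRNAs) of the U series build the spliceosome or guide the processing of other RNAs. 7SK RNA holds the transcription elongation factor P-TEFb in an inactive complex, and 7SL RNA is the scaffold of the signal recognition particle, which brings nascent secreted proteins to the endoplasmic reticulum. BC1 is a rodent RNA known from neurons, where it is found in dendrites and acts on translation. Most of these RNAs carry no poly(A) tail, so a poly(A)-selected library holds an unknown part of them, and base means are no measure of their cellular abundance.

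Genes of the RNAs for which 3 of the 12 called rows are named (BC1_Mm, 7SK and U2) were taken from GENCODE release M21 (build GRCm38, the assembly that mm10 names), and the transcripts of these genes are shown because they differ in runs of A, which poly(A) selection can bind. Capitals mark every run of 8 or more A bases, or the first of the longest runs of A where none is that long. Bc1 lies at chr7:144914470-144914637 on the plus strand, Rn7sk at chr9:78175303-78175633 on the minus strand and Rnu2-10 at chr11:101658238-101658428 on the plus strand.
Bc1: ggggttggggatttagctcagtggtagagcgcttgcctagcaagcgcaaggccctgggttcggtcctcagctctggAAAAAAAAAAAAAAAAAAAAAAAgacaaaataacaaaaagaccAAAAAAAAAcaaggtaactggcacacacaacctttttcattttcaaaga
Rn7sk, first 300 bases: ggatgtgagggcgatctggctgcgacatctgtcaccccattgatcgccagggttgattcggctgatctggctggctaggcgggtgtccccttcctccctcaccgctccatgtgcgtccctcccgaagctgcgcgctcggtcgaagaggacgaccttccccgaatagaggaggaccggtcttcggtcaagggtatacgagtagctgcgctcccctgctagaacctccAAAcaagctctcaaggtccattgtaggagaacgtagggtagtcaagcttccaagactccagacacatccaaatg
Rnu2-10: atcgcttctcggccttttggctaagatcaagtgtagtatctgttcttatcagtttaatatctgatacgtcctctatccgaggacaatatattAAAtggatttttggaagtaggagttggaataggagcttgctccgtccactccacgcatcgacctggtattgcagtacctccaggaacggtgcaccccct
The Bc1 transcript, of 168 bases, held 2 runs of 8 or more A, the longer of 23 bases at positions 77 to 99 from its 5′ end. The longest run of A was 3 bases in Rn7sk (331 bases) and in Rnu2-10 (191 bases). The run of 8 A (AAAAAAAA), searched on the transcript strand only, was found in 43 of 3086 annotated small RNA transcripts of 100 to 350 bases, or 1.39%. A repeat row sums many copies, so these transcripts stand for the genes and not for every read counted. The part of such runs in the levels below was not tested.

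In bulk RNA a change in RNA per cell and a change in the kinds of cells present cannot be told apart. Values per library were not analysed here, since each table gives only the authors' comparison of the 3 treated with the 3 control libraries, and neither depth per library nor the identity of the cells could be checked from repeat rows. Whether treated or control cells form the numerator was not given in the sources used here. Rows are therefore given as positive or negative in the authors' contrast, with no statement on which sign means more RNA after treatment. Nothing in the labels says that the 3 libraries of a group were separate cultures or animals, and the p-values then cover only the spread among the libraries, which may be technical. Log2 fold changes are printed ± their standard error (SE). A row was called where its adjusted p by the authors' deposited table was under 0.05.

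Most members were read rarely. Base mean is the mean over the 6 libraries of a comparison of reads divided by a size factor. It was 0 in all 3 tables for 4 members, which were tRNA-Gln-CAA_, tRNA-His-CAY, tRNA-Ser-TCA(m) and U8. It was under 10 for 56 of 81 members in ESCs, 61 in macrophages and 56 in NPCs by the authors' deposited tables. An adjusted p was given for 29 members in ESCs, 59 in macrophages and 59 in NPCs. The lowest base mean with an adjusted p was 7.39, 0.511 and 1.40 in ESCs, macrophages and NPCs by the authors' deposited tables, so many of the rarer members were tested in the latter cell types only. Of the 81 members, 28 were tested in all 3 tables and 19 in none. Members with a base mean under 1 lay within 0.25, 0.24 and 0.36 of 0 on the log2 scale in ESCs, macrophages and NPCs, so changes of rare rows may be understated.

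A few rows held nearly all of the members' reads. LSU-rRNA_Hsa, named for the human large subunit rRNA, had a base mean of 37609 in ESCs, 77827 in macrophages and 66017 in NPCs by the authors' deposited tables. SSU-rRNA_Hsa had 2935, 4287 and 5016 in the same order by the authors' deposited tables. Together these rRNA rows made up 84.8%, 92.1% and 89.8% of the summed base mean of all members, and 1.06%, 4.13% and 3.41% of that of all 1365 rows. BC1_Mm was the most read member outside the rRNAs in each table, with 4139, 3421 and 3808 by the authors' deposited tables. Each table was scaled by itself and rows differ in length and copy number, so these are reads per row and not levels of an RNA.

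**Figure D1:**
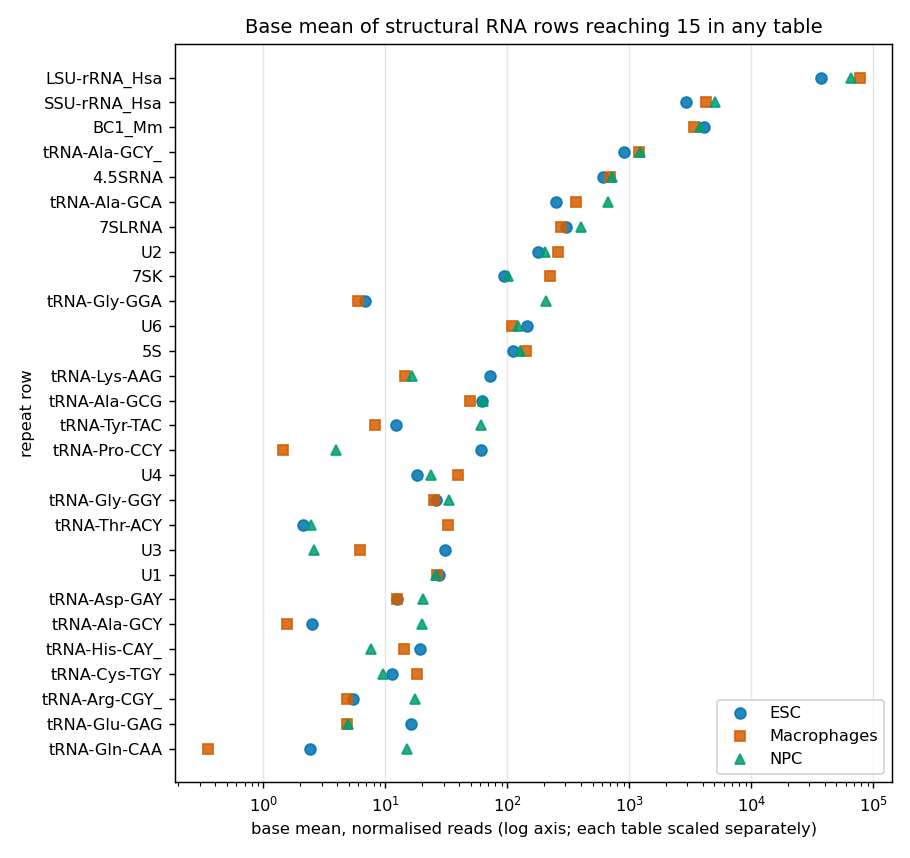
Base mean in normalised reads (log axis) of each member that reached 15 in any table, in ESCs (circles), macrophages (squares) and NPCs (triangles); each table was scaled separately. LSU-rRNA_Hsa lies highest in all tables. tRNA-Gln-CAA, tRNA-Gly-GGA, tRNA-Pro-CCY, tRNA-Thr-ACY and tRNA-Ala-GCY have their points far apart.

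The share of tested members that was called was below that of all rows in each cell type, a difference that was not tested. In ESCs 5 of 29 tested members were called, 4 positive and 1 negative, against 22.2% of all rows tested by the authors' deposited table (10.2% positive and 12% negative). In macrophages 5 of 59 were called, 4 positive and 1 negative, against 25.8% (13.3% positive and 12.5% negative). In NPCs 4 of 59 were called, 3 positive and 1 negative, against 11.8% (4.96% positive and 6.81% negative). An unadjusted p under 0.05 was given for 6, 10 and 12 tested members, in that order, or 20.7%, 16.9% and 20.3%, beside 31.2%, 34.7% and 20.6% of all rows tested. The tested members had a median log2 fold change of -0.05, -0.03 and 0.02 in the same order, beside 0.0019, -0.0129 and 0.00089 over all rows tested. Members had larger standard errors than other rows, with a median of 0.28, 0.33 and 0.39 against 0.14, 0.17 and 0.27 over all rows tested by the authors' deposited tables, so a given change was harder to detect in them. In all, 12 members were called in at least 1 table, of which 8 were tRNA rows, 10 were called in a single table and 2, tRNA-Gly-GGY and tRNA-His-CAY_, in 2 tables. Among all rows, 538 were called in at least 1 table, 118 of these in 2 and 33 in 3. The 387 called in a single table were 71.9%, beside 83.3% of the called members. This gap was not tested, and only 28 members had an adjusted p in all 3 tables.

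**Figure D2:**
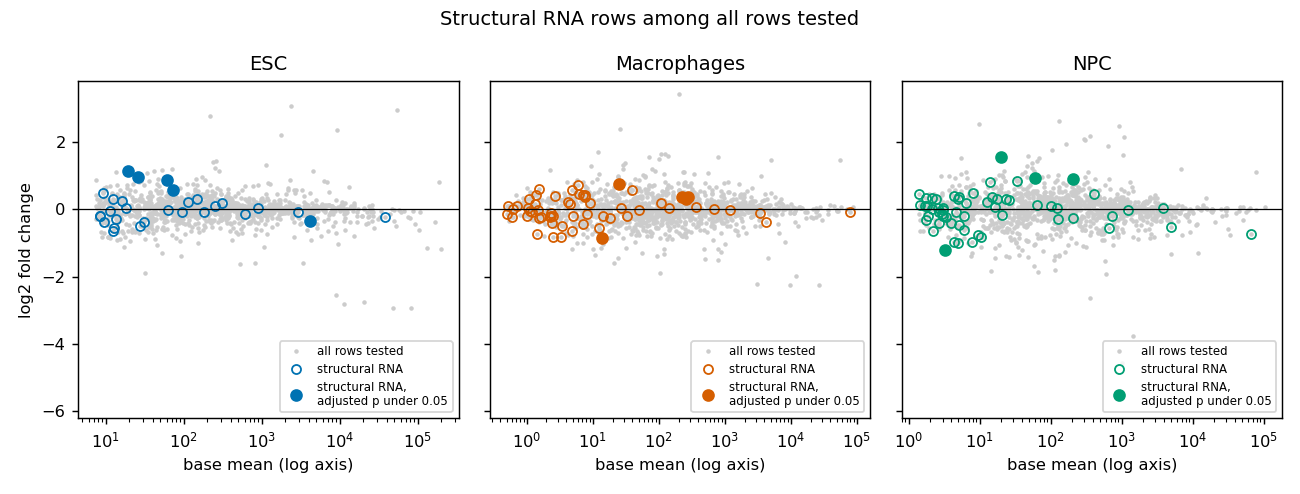
Log2 fold change in the authors' contrast against base mean (log axis) for all rows tested (grey) and structural RNA rows (coloured circles, filled where the adjusted p was under 0.05) in each cell type. The 14 filled circles lie within 1.54 of 0 on the log2 scale.

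None of the 3 rRNA rows was called by DESeq2 in any table, and none had an unadjusted p under 0.05. In the authors' deposited tables LSU-rRNA_Hsa lay at -0.23 ± 0.22 in ESCs, -0.09 ± 0.36 in macrophages and -0.73 ± 0.40 in NPCs, at adjusted p values of 0.535, 0.903 and 0.301. SSU-rRNA_Hsa lay at -0.08 ± 0.21, -0.39 ± 0.37 and -0.53 ± 0.39 by the authors' deposited tables. Both were on the negative side in each table, within 2 SE of 0, and the SE of LSU-rRNA_Hsa was above the median SE of all rows tested in each table. 5S, the row of the smallest ribosomal RNA, lay at 0.23 ± 0.18, 0.03 ± 0.14 and -0.30 ± 0.20 by the authors' deposited tables.

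Of the spliceosomal RNAs, U2 was called, in macrophages; the other 4 rows (U1, U4, U5 and U6) were called in no table. U2 pairs with the branch point of introns. In the authors' deposited table for macrophages it lay at 0.31 ± 0.11, or 1.24-fold, with a base mean of 261, at an adjusted p of 0.0284. In the tables of the authors for ESCs and NPCs, U2 lay at -0.10 ± 0.15 and -0.25 ± 0.25, at adjusted p values of 0.726 and 0.673. The difference between macrophages and ESCs did not pass when tested itself (ESCs minus macrophages -0.41, 95% interval -0.77 to -0.05, adjusted p 0.0957). Nor did that between macrophages and NPCs (0.57, interval 0.02 to 1.11, adjusted p 0.203).

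U1, which pairs with 5′ splice sites, lay at -0.49 ± 0.28, 0.04 ± 0.23 and 0.26 ± 0.39 by the authors' deposited tables, in the order ESCs, macrophages and NPCs. U4 and U6 enter the spliceosome paired with each other. U4 lay at 0.02 ± 0.31, 0.58 ± 0.26 and 0.31 ± 0.33 by the authors' deposited tables, at an adjusted p of 0.0888 in macrophages. U6, the polymerase III member of the group and the row with a base mean of 146, 109 and 123, lay at 0.30 ± 0.16, 0.17 ± 0.14 and 0.02 ± 0.22 by the authors' deposited tables. U5 lay at -0.37 ± 0.34, -0.44 ± 0.35 and 0.36 ± 0.43 by the authors' deposited tables at base means under 10. The 5 spliceosomal rows thus did not share a side in any table.

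The remaining rows of the snRNA class had base means under 10, apart from U3 in ESCs. U3, which guides cleavage of the rRNA precursor, had a base mean of 30.6, 6.25 and 2.60 in that order of cell types, and lay at -0.37 ± 0.28, 0.44 ± 0.36 and 0.03 ± 0.41 by the authors' deposited tables. U7, which acts in the 3′ processing of histone mRNAs, and U17 were tested in macrophages and NPCs only. U7 lay at 0.41 ± 0.35 and -0.22 ± 0.39 and U17 at 0.30 ± 0.27 and 0.10 ± 0.31 by the authors' deposited tables. U13 was tested in no table. U13_, a second row of that name singled out after its values were seen, lay at -0.49 ± 0.37 in macrophages and -0.22 ± 0.43 in NPCs, at adjusted p values of 0.382 and 0.865 by the authors' deposited tables.

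7SL and 7SK lay on the positive side in macrophages. 7SLRNA was at 0.36 ± 0.10 there, a 1.28-fold difference at a base mean of 277, at an adjusted p of 0.00143 by the authors' deposited table, the smallest among the members in macrophages. It lay at 0.17 ± 0.14 in ESCs and at 0.46 ± 0.20 in NPCs, at adjusted p values of 0.467 and 0.136 by the authors' deposited tables. 7SLRNA was thus positive in all 3 tables, and no pair of cell types differed past the test (adjusted p 0.485, 0.563 and 0.860). 7SK lay at 0.36 ± 0.13 in macrophages, a 1.28-fold difference at a base mean of 226, at an adjusted p of 0.0259 by the authors' deposited table. It lay at -0.08 ± 0.18 in ESCs and 0.09 ± 0.20 in NPCs, at adjusted p values of 0.840 and 0.894 by the authors' deposited tables. ESCs minus macrophages gave -0.43 for 7SK, with a 95% interval of -0.87 to 0.0021 and an adjusted p of 0.154.

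BC1_Mm was the single member on the negative side called in ESCs. It lay at -0.35 ± 0.10, a 1.27-fold difference at a base mean of 4139, at an adjusted p of 0.00465 by the authors' deposited table. In macrophages it lay at -0.13 ± 0.07 and in NPCs at 0.04 ± 0.20, at adjusted p values of 0.193 and 0.957 by the authors' deposited tables. The differences of ESCs from macrophages (-0.22, 95% interval -0.46 to 0.03) and from NPCs (-0.38, interval -0.83 to 0.06) did not reach the threshold, at adjusted p values of 0.218 and 0.308. BC1 shares its 5′ part with ID elements, a class of SINEs that descends from it, so reads may be divided between these rows.

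4.5SRNA, named for a small RNA of rodents, was not called, with -0.14 ± 0.10, 0.0084 ± 0.0732 and -0.21 ± 0.24 by the authors' deposited tables at base means of 605, 693 and 726. Its SE in macrophages was the third smallest of all tested members there. The Y RNA rows, named for partners of the Ro protein, had base means under 4 in all tables. HY1 was tested in NPCs only, at 0.10 ± 0.36, and HY3 in macrophages and NPCs, at 0.09 ± 0.26 and 0.0014 ± 0.3437 by the authors' deposited tables. HY4 was tested in no table.

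**Figure D3:**
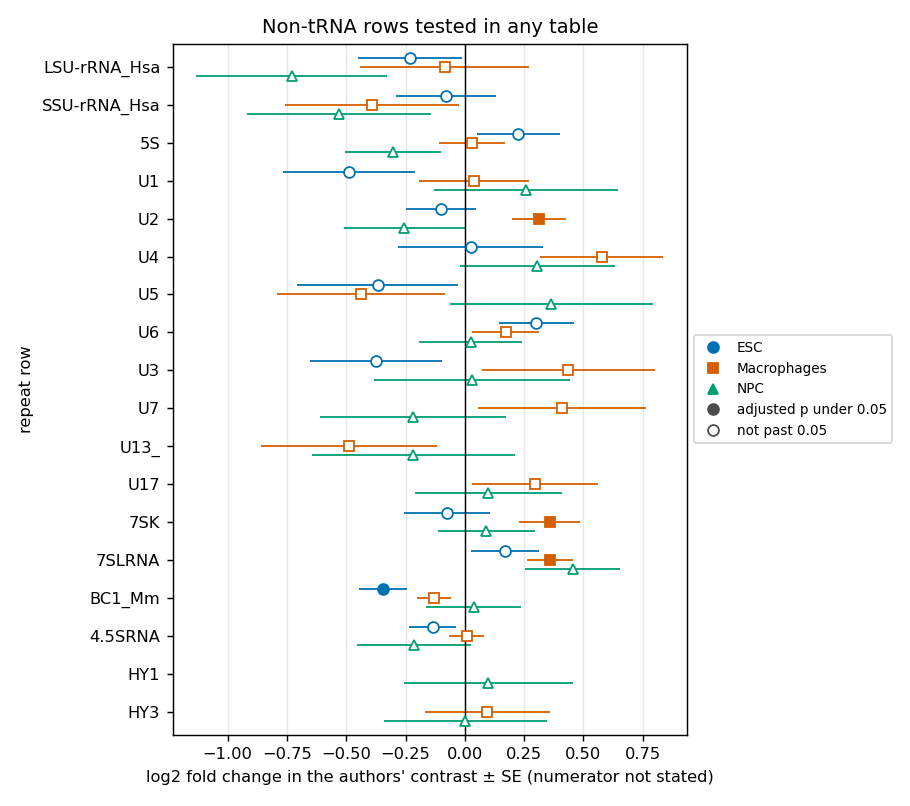
Log2 fold change in the authors' contrast ± SE (x axis; numerator not stated) for the non-tRNA rows tested in ESCs (circles), macrophages (squares) or NPCs (triangles), filled where the adjusted p was under 0.05. Filled symbols are U2, 7SK and 7SLRNA in macrophages and BC1_Mm in ESCs, and rows without an adjusted p in a table have no symbol there.

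Rows for alanine tRNA carried most of the tRNA reads. tRNA rows are named by amino acid and codon, Y standing for C or T. The 4 alanine rows held 75.9%, 88.2% and 79.0% of the summed base mean of the 60 tRNA rows in ESCs, macrophages and NPCs. tRNA-Ala-GCY_ had base means of 902, 1212 and 1215 and lay at 0.04 ± 0.09, -0.04 ± 0.06 and -0.03 ± 0.14 by the authors' deposited tables, the smallest SE of any member in each table. tRNA-Ala-GCA, at base means of 249, 364 and 672, lay at 0.09 ± 0.13, 0.07 ± 0.10 and -0.55 ± 0.25 by the authors' deposited tables, at an adjusted p of 0.162 in NPCs. tRNA-Ala-GCG lay at -0.03 ± 0.22, -0.03 ± 0.19 and 0.13 ± 0.27 by the authors' deposited tables. BC1 and ID elements also descend from an alanine tRNA, and how reads that fit several rows were assigned was not given in the sources used here.

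A row with more annotated genes did not always hold more reads. Of the 60 tRNA rows, 54 have a name of amino acid and codon alone, apart from any trailing _. By the anticodon of that codon, 53 of these matched at least 1 tRNA gene of the RefSeq annotation of GRCm38.p6. tRNA-Ala-GCY_ matched 13 genes, whereas tRNA-Cys-TGY, picked out after its values were seen, matched 56 genes and had base means of only 11.2, 18.2 and 9.52 by the authors' deposited tables. tRNA-Ala-GCY and tRNA-Ala-GCY_, which name the same codons, had base means of 2.52 and 902 in ESCs by the authors' deposited table. What the trailing _ marks was not given in the sources used here.

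In ESCs the tRNA rows that were called all lay on the positive side. They were 4 of 16 tested tRNA rows, or 25%, beside 22.2% of all rows called on either side and 10.2% called positive. Neither gap was tested, so their number is no result about tRNA rows. tRNA-His-CAY_ lay at 1.13 ± 0.32, a 2.19-fold difference at a base mean of 19.3, at an adjusted p of 0.00281 by the authors' deposited table. tRNA-Gly-GGY lay at 0.94 ± 0.29, a 1.92-fold difference at a base mean of 26.0, at an adjusted p of 0.00741 by the authors' deposited table. tRNA-Pro-CCY lay at 0.86 ± 0.22, a 1.81-fold difference at a base mean of 60.9, at an adjusted p of 0.00127 there, the smallest of all members in ESCs. tRNA-Lys-AAG lay at 0.58 ± 0.21, with a base mean of 72.7, at an adjusted p of 0.0250 by the authors' deposited table. The next member by adjusted p was tRNA-Tyr-TAC, at -0.66 ± 0.34 with 0.155 by the authors' deposited table.

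In macrophages tRNA-Gly-GGY was again positive and tRNA-His-CAY_ lay on the other side than in ESCs. They were the 2 called of 42 tested tRNA rows, beside 25.8% of all rows. tRNA-Gly-GGY lay at 0.74 ± 0.27, a 1.68-fold difference at a base mean of 25.0, at an adjusted p of 0.0230 by the authors' deposited table. tRNA-His-CAY_ lay at -0.87 ± 0.31, a 1.82-fold difference at a base mean of 14.1, at an adjusted p of 0.0262 by the authors' deposited table. tRNA-Thr-ACG_ was the member just past the threshold, at -0.83 ± 0.35 and a base mean of 2.52 at an adjusted p of 0.0657 by the authors' deposited table. Of the other rows called in ESCs, tRNA-Pro-CCY lay at -0.73 ± 0.34 and tRNA-Lys-AAG at -0.21 ± 0.29 in macrophages, at adjusted p values of 0.09996 and 0.672 by the authors' deposited table. tRNA-Thr-ACG_ lay at -0.83 ± 0.33 in ESCs, where it had no adjusted p, and at -0.65 ± 0.40 in NPCs by the authors' deposited tables.

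In NPCs other rows were called, 4 of 41 tested tRNA rows (9.76%), beside 11.8% of all rows. tRNA-Ala-GCY lay at 1.54 ± 0.39, a 2.90-fold difference at a base mean of 20.0, at an adjusted p of 0.0018 by the authors' deposited table, and had the largest absolute log2 fold change among called members of all tables. tRNA-Tyr-TAC lay at 0.91 ± 0.30 (1.88-fold) and tRNA-Gly-GGA at 0.90 ± 0.31 (1.86-fold), at base means of 61.0 and 207, at adjusted p values of 0.0248 and 0.0361 by the authors' deposited table. tRNA-Leu-TTA(m) was the one negative row, at -1.20 ± 0.41 (2.30-fold) and an adjusted p of 0.0361, at a base mean of only 3.24 by the authors' deposited table. tRNA-His-CAY_ lay at -0.98 ± 0.43 in NPCs, at an adjusted p of 0.133 by the authors' deposited table, the same side as in macrophages. tRNA-Pro-CCY lay at -0.40 ± 0.43 and tRNA-Lys-AAG at 0.05 ± 0.36 by that table, neither called. In macrophages tRNA-Ala-GCY, tRNA-Gly-GGA and tRNA-Leu-TTA(m) lay on the same side as in NPCs, at 0.59 ± 0.31, 0.72 ± 0.36 and -0.84 ± 0.37. In ESCs these rows had no adjusted p and lay at 0.28 ± 0.30, -0.53 ± 0.34 and -0.09 ± 0.33 by the authors' deposited table. tRNA-Gly-GGA thus lay on the other side in ESCs. Their adjusted p values in macrophages were 0.166, 0.139 and 0.0839 by the authors' deposited table. tRNA-Tyr-TAC lay on the other side in macrophages, at -0.16 ± 0.35 with an adjusted p of 0.809 by that table. The first row past the threshold in NPCs was tRNA-Val-GTY, at -1.01 ± 0.43 at an adjusted p of 0.119 by the authors' deposited table.

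tRNA-Gly-GGY, a row of glycine codons, lay on the positive side in all 3 cell types. In NPCs it lay at 0.83 ± 0.37 at an adjusted p of 0.149 by the authors' deposited table, beside the 0.94 in ESCs and 0.74 in macrophages. Its differences between cell types were small against their intervals: ESCs minus macrophages gave 0.20 (95% interval -0.57 to 0.97), ESCs minus NPCs 0.11 (-0.81 to 1.04) and macrophages minus NPCs -0.08 (-0.98 to 0.81). Differences of up to nearly 1 on the log2 scale lie within each of these intervals.

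**Figure D4:**
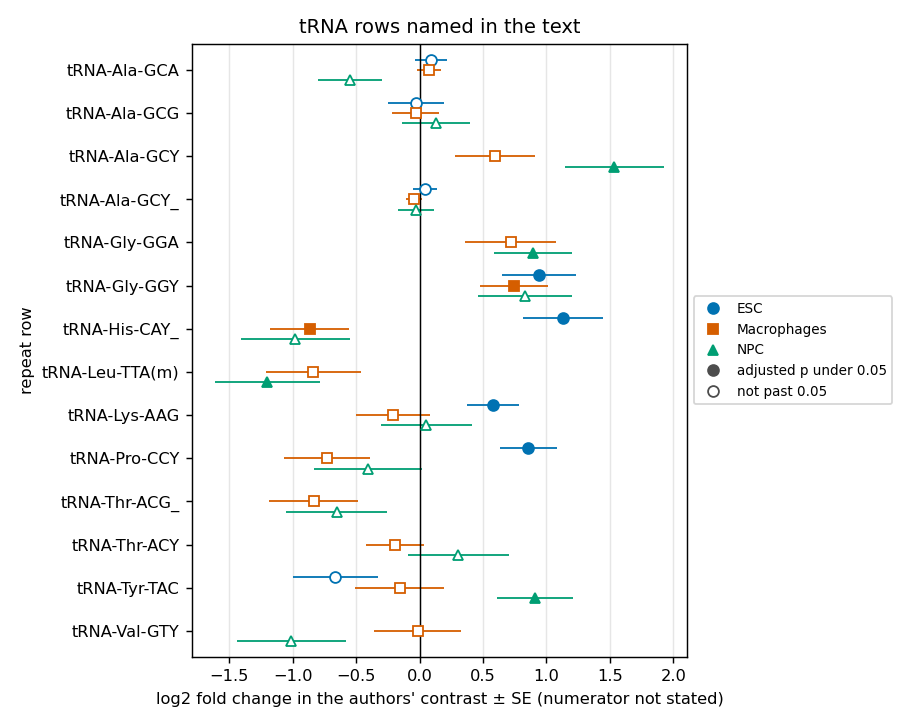
Log2 fold change in the authors' contrast ± SE (x axis, numerator not stated) for tRNA rows named in the text. ESCs are circles, macrophages squares and NPCs triangles, filled where the adjusted p was under 0.05. tRNA-Gly-GGY is positive in all tables and tRNA-His-CAY_ is positive in ESCs and negative in the others; rows without an adjusted p in a table have no symbol there.

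Some called tRNA rows had more reads in the table in which they were called than in the others, a pattern picked out after the values were seen. A row can be called only where it has enough reads to be tested, so the pattern shows no link between level and change. In ESCs tRNA-Gly-GGA, tRNA-Ala-GCY and tRNA-Leu-TTA(m), called in NPCs, lay under the lowest base mean with an adjusted p (7.39). They could not be called there. The summed base mean of all rows differed between tables, so values scaled to a sum of 1000000 in each table, in parts per that sum (ppm), are given beside the base means. In the authors' deposited tables tRNA-Pro-CCY, called in ESCs, had a base mean of 60.9 in ESCs, 1.45 in macrophages and 3.93 in NPCs, or 15.9, 0.728 and 1.89 ppm. tRNA-Lys-AAG, also called in ESCs, had 72.7, 14.5 and 16.5 by the authors' deposited tables, or 18.9, 7.28 and 7.92 ppm. Its gap was smaller on the second scale.

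Of the rows called in NPCs, tRNA-Gly-GGA had base means of 6.85, 6.02 and 207 by the authors' deposited tables, or 1.78, 3.03 and 99.4 ppm. tRNA-Tyr-TAC had 12.3, 8.20 and 61.0, or 3.20, 4.13 and 29.3 ppm, and tRNA-Ala-GCY 2.52, 1.56 and 20.0, or 0.656, 0.785 and 9.60 ppm, by the authors' deposited tables. These 3 rows were highest in NPCs on both scales. The fourth, tRNA-Leu-TTA(m), was not: it had 5.75, 3.38 and 3.24 by the authors' deposited tables, or 1.498, 1.698 and 1.553 ppm.

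Of the rows called in 2 tables, tRNA-Gly-GGY did not follow the pattern either, whereas tRNA-His-CAY_ did. tRNA-Gly-GGY had base means of 26.0, 25.0 and 33.6 by the authors' deposited tables, or 6.78, 12.6 and 16.1 ppm, and was highest in NPCs, where it was not called. tRNA-His-CAY_ had 19.3, 14.1 and 7.70 by the authors' deposited tables, or 5.03, 7.09 and 3.69 ppm. It was lowest on both scales in NPCs, where it was not called, and the order of ESCs and macrophages turned with the scale. tRNA-Thr-ACY stood high in macrophages, with 2.10, 32.9 and 2.47 by the authors' deposited tables, or 0.546, 16.6 and 1.18 ppm, and was not called there (-0.19 ± 0.23, adjusted p 0.611). tRNA-Gln-CAA, singled out after its values were seen, had 2.43, 0.351 and 15.1 by the authors' deposited tables. It was highest in NPCs and was not called there (0.36 ± 0.38, adjusted p 0.681). No test was made of these levels.

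The difference of the fold changes between cell types was tested for every row with an adjusted p in both tables, taking the tables as oriented alike. Between ESCs and macrophages 2 of 28 members passed, both higher on the authors' scale in ESCs, against 23.7% of all 1124 rows tested (11.8% positive and 11.8% negative). They were tRNA-His-CAY_, with a difference of 2.00 (95% interval 1.12 to 2.87, adjusted p 0.000105), and tRNA-Pro-CCY, with 1.59 (0.79 to 2.38, adjusted p 0.000926). Between ESCs and NPCs 2 of 28 passed, against 12.6% of 1126 rows (6.48% positive and 6.13% negative), 1 on each side. These were tRNA-His-CAY_, with 2.11 (1.07 to 3.15, adjusted p 0.00116), and tRNA-Tyr-TAC, with -1.58 (-2.46 to -0.69, adjusted p 0.006). tRNA-Pro-CCY gave 1.26 in this pair (0.32 to 2.20) and did not pass, at an adjusted p of 0.0626. Between macrophages and NPCs 0 of 57 members passed this normal test with Benjamini-Hochberg adjustment, against 12.4% of 1222 rows (6.22% positive and 6.14% negative). Of these members, 3 reached an unadjusted p under 0.05. With the sign of the second table turned, none of the 4 differences called above passed.

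**Figure D5:**
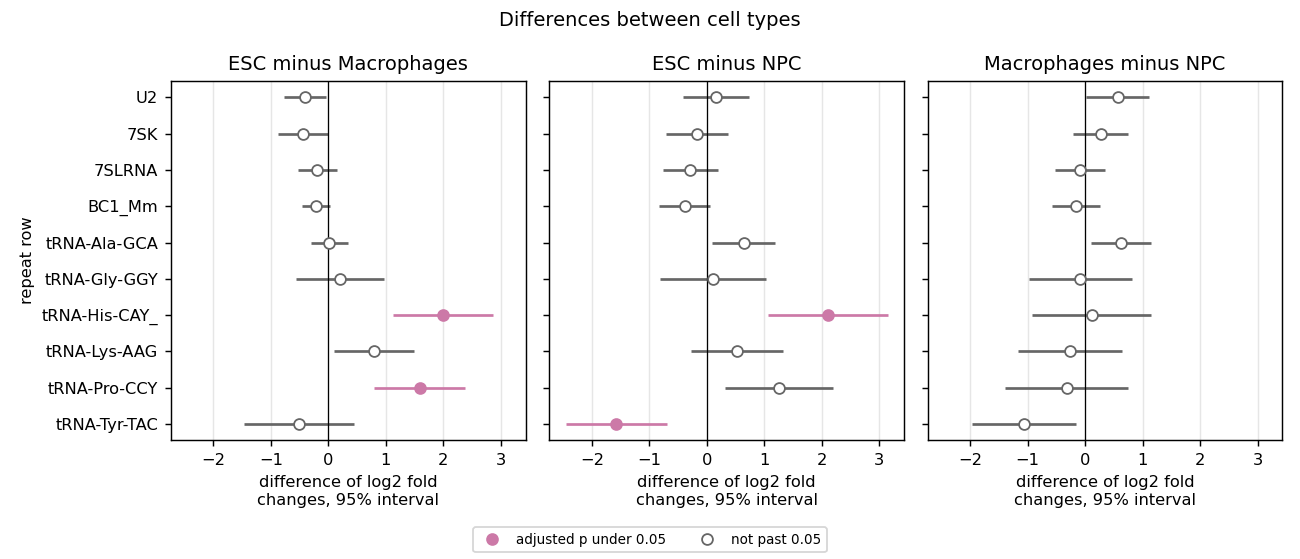
Difference of log2 fold changes between cell types with its 95% interval (x axis) for 10 members, one panel per pair, coloured where the adjusted p was under 0.05. Coloured are tRNA-His-CAY_ and tRNA-Pro-CCY in ESCs minus macrophages, and tRNA-His-CAY_ and tRNA-Tyr-TAC in ESCs minus NPCs. Some intervals of rows that are not coloured also leave out 0, such as that of U2 in ESCs minus macrophages.

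SINEs, short elements copied through RNA, descend from these RNAs, and their rows were counted beside them. Of 16 rows of the class SINE/Alu, which come from 7SL RNA and hold the mouse B1 elements, 0 were positive in any table and 2, 1 and 0 were negative in ESCs, macrophages and NPCs, by the DESeq2 test of the authors' deposited tables. Of all rows, 12%, 12.5% and 6.81% were negative, so 2 of 16 in ESCs is near that share. The list's median was -0.08, -0.01 and -0.01. 7SLRNA itself lay on the positive side in all 3 tables, as given above. Of 19 rows related to tRNA (B2, B4, ID, MIR and LFSINE_Vert), 0, 2 and 0 were positive and 3, 1 and 0 negative in the same order, beside 10.2%, 13.3% and 4.96% of all rows positive, with medians of -0.01, 0.01 and 0.03. An unadjusted p under 0.05 was given for 4, 4 and 0 SINE/Alu rows and for 3, 5 and 3 tRNA-related rows. The tRNA-related rows called in ESCs were B2_Mm1a, B2_Mm1t and B2_Mm2, at -1.17 ± 0.21, -1.16 ± 0.19 and -0.45 ± 0.09 by the authors' deposited table. The 4 ID rows (ID, ID2, ID4 and ID4_), which share sequence with BC1, lay in ESCs at 0.01 ± 0.08, -0.11 ± 0.08, 0.04 ± 0.07 and -0.02 ± 0.07 by the authors' deposited table, and none of these 4 was called where BC1_Mm lay at -0.35. In macrophages ID at 0.13 ± 0.05 and ID4 at 0.14 ± 0.04 were called by the authors' deposited table, at adjusted p values of 0.0310 and 0.0058. ID2 at -0.04 ± 0.06 and ID4_ at 0.01 ± 0.04 were not, at 0.672 and 0.901 by the same table. BC1_Mm lay at -0.13 in macrophages. AmnSINE1, the row related to 5S rRNA, lay at -0.11 ± 0.13, 0.06 ± 0.09 and 0.21 ± 0.14 by the authors' deposited tables and was not called.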

How the data were processed

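Poly(A) RNA of 18 libraries was sequenced as stranded, paired-end reads, per the labels' protocols. The submitters' processing notes name build mm10 and, without saying what each was used for, TopHat2 2.0.13, Bowtie2, Trim Galore, deepTools, featureCounts and DESeq2. Per the file headers, the deposited columns have the names that DESeq2 gives to its results. The authors' deposited base mean is a signal, the mean of size-factor-normalised reads over the libraries of a table. The authors' deposited fold change and its error are on the log2 scale. The authors' deposited Wald statistic is a score, and equalled the fold change over its error in every row with one. The authors' deposited adjusted p-value was a Benjamini-Hochberg adjustment of the p-value over the rows that have one, within a relative difference of 1e-06. How reads fitting several copies or rows were counted, and whether strand was used, was not given in the sources used here, so similar rows can share reads.

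Fits were the authors', over whole tables. For each pair of cell types, the difference of fold changes was set against its error (the squared errors of both tables, summed, under a root), giving a normal p, two-sided, which was adjusted by Benjamini-Hochberg over all rows tested in both tables (Python 3.11.15, pandas 2.3.3, SciPy 1.17.1). The calculation was checked on simulated data. The members and lists were chosen with earlier results of these data known. Named were members called in any table or pair, a set list of non-tRNA rows, the 5 tRNA rows of highest base mean per table and those nearest to the threshold of 0.05. The tables hold no values per library, so the count model foreseen for count tables was not run. Transcript sequences are shown for 3 called rows; those of the other called rows are not reported here.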

Additional observations from a re-analysis of the deposited data

Results flagged for a closer look

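Members were picked out here because their fold changes differed between cell types by the test of the difference itself. tRNA-His-CAY_ differed by 2.00 on the log2 scale between ESCs and macrophages and by 2.11 between ESCs and NPCs, positive in the first and negative in both others. tRNA-Pro-CCY differed by 1.59 between ESCs and macrophages. tRNA-Tyr-TAC differed by -1.58 between ESCs and NPCs. These values take the tables as oriented alike. With the sign of the second table turned, tRNA-His-CAY_ gave 0.26 and 0.15, tRNA-Pro-CCY 0.13 and tRNA-Tyr-TAC 0.25, and none of them passed the test. The base mean of tRNA-Pro-CCY was 1.45 in macrophages, and that of tRNA-His-CAY_ 7.70 in NPCs, in the authors' deposited tables, so these differences rest on few reads on 1 side. Cell type, dose and, for macrophages, strain cannot be told apart in them.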

How the results depend on the processing

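No paired analysis was possible because the tables hold no values per library, and leaving out replicates was not run for the same reason. Called members numbered 5, 5 and 4 (ESCs, macrophages, NPCs) also when p-values were adjusted over every row with a p, and when fold changes were centred on the median of tested rows. With only rows of a base mean of at least 50, which tests fewer members, they numbered 3, 3 and 2, and without the tRNA class 1, 3 and 0. At an adjusted p of 0.01 they numbered 4, 1 and 1, and at 0.1 they numbered 5, 9 and 4. With a base mean of at least 10, chosen after seeing the data, they numbered 5, 5 and 3, without tRNA-Leu-TTA(m) in NPCs. Members differing between ESCs and macrophages numbered 0 with a base mean of at least 50 and 1 with at least 10 in both tables; between ESCs and NPCs they numbered 0 and 1. If the tables were oriented in opposite ways, with the sign of the second turned, 3, 1 and 7 members would differ between ESCs and macrophages, ESCs and NPCs, and macrophages and NPCs, against 2, 2 and 0. None of the 4 differences named above would be among them. For ESCs and macrophages tRNA-His-CAY_ would fall from 2.00 to 0.26 and tRNA-Pro-CCY from 1.59 to 0.13, and for ESCs and NPCs tRNA-His-CAY_ from 2.11 to 0.15, at adjusted p values of 0.712, 0.840 and 0.892. The value of tRNA-Tyr-TAC for ESCs and NPCs would then turn from -1.58 to 0.25, at an adjusted p of 0.808.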
